A study of Mus musculus with 28 samples.

Results

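The genes described here are 10 immediate early stress genes, Fos, Fosb, Jun, Junb, Egr1, Egr2, Ier2, Atf3, Dusp1 and Nr4a1, in dendritic cells sorted from mouse kidneys. They were taken by symbol from 19272 genes on the array. Each had 1 probeset annotated to that symbol alone, and all 10 were among the 14325 genes that passed the filter on dim signals and were tested. The study measured RNA on 28 arrays in 8 groups, 1 array for each kidney region of each mouse and kind of cell. Donor dendritic cells of the medulla and of the cortex (BALB/c, carrying CD45.2) and host dendritic cells of the medulla and of the cortex (C57BL/6, carrying CD45.1) came from renal allografts 3 days after transplantation, with 3 arrays in each of these 4 groups. Donor and host cells of both regions came from the same 3 graft mice. Homeostatic BALB/c medulla and cortex, and homeostatic C57BL/6 medulla and cortex, came from healthy kidneys, with 4 arrays in each of these 4 groups. The cells of all 8 groups were freed from the tissue with collagenase and DNase and sorted on CD45, CD11c and MHCII, the graft cells on CD45.1 or CD45.2 in addition, and their RNA was amplified before hybridisation. The labels give no age, and no label speaks of pooled animals.

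Immediate early genes are switched on within minutes of a signal, without new protein being made first. Kinase cascades (ERK, JNK and p38) act on transcription factors already bound at their promoters, such as SRF with its ELK partners and CREB, and the new transcripts decay quickly. Fos and Jun proteins pair to form AP-1, EGR proteins and NR4A1 are transcription factors of their own, and DUSP1 removes phosphate from the same kinases and so ends the signal. In dendritic cells and macrophages these genes respond to danger signals and cytokines, and they are also known to rise while tissue is being dissociated.

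The promoters of 4 members are shown, those called in a comparison of graft with healthy cells that have a single promoter window listed. Fos, Fosb and Dusp1 were called lower in donor cortex cells, Dusp1 also in host cortex cells, and Jun in host cells of both regions. Egr2 was called too but has several windows, and Egr1 was called but its promoter was not analysed here. Each sequence is the 200 bases before the transcription start in RefSeq's mouse annotation (GRCm38.p6), written 5′ to 3′ on the gene's own strand. Capitals mark TGACG on either strand, one arm of the site that CREB and ATF proteins bind, and the full palindrome where it reads TGACGTCA.
Fos: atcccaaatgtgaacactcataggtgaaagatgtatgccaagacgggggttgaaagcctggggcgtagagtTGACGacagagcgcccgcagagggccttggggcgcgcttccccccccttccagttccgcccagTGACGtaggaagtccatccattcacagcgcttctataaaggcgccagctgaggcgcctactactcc
Fosb: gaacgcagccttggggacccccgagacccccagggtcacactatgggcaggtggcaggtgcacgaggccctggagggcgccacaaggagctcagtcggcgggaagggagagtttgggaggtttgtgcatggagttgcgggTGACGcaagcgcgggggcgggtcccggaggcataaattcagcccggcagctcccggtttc
Jun: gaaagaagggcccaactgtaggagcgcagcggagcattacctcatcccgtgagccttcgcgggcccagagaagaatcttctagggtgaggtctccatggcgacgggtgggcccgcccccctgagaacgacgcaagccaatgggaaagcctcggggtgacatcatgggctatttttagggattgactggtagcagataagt
Dusp1: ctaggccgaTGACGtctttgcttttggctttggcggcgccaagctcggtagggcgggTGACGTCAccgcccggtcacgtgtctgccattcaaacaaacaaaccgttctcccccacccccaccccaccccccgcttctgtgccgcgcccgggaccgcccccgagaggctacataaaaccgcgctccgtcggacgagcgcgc
They lie at chr12:85473690-85473889 on the plus strand (Fos), chr7:19310046-19310245 on the minus strand (Fosb), chr4:95052223-95052422 on the minus strand (Jun) and chr17:26508473-26508672 on the minus strand (Dusp1). Windows of 300 bases, 250 before to 50 after each start, were listed for 8 of the 10 members, with Egr1 and Ier2 not analysed here. A gene was counted where any of its windows held the motif, and shares are of all 27025 genes with windows. TGACG stood in 7 of these 8 members on one strand or the other, Jun being the one without it, and in 23.05% of genes. The whole TGACGTCA, which holds TGACG, stood in Dusp1 and in 2.03% of genes. The GC box, GGGCGG, which can overlap the EGR motif, stood in 7 of the 8, against 38.2% of genes, and the EGR motif GCGNGGGCG in Fosb and Nr4a1, against 6.27%. A CArG box, the site SRF binds, was found among the 8 in Egr2 alone, which has several windows, against 1.81% of genes. Bases more than 250 before a start were not searched, so a site further upstream would be missed. The AP-1 motif TGANTCA was in 0 of the 8 and in 8.97% of genes. These matches describe letters in the windows shown and searched, not binding.

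All values below are log2 array signals as the authors normalised them, and all differences are log2 differences between group means, so that a difference of 1 is a doubling of signal. Levels are compared for 1 gene at a time, since signals of different probesets are not on a common scale. A gene is called changed where limma's moderated test, fitted on all 28 arrays, gives an adjusted p under 0.05 over the 14325 genes tested. Arrays of 1 group correlated with each other at 0.848 to 0.950 over all probesets on average, except homeostatic BALB/c medulla replicate 1, which stood apart at 0.788. Leaving it out changed the count of members called in 1 of the 6 comparisons that use it, donor medulla over homeostatic BALB/c medulla, where Jun was then called. The sort markers did not stay level: H2-Ab1 (MHCII) lay between 8.84 and 12.57 on the graft arrays and between 11.61 and 13.33 on the homeostatic arrays, and Itgax (CD11c) averaged 7.38 ± 0.19 in donor medulla, 7.66 ± 0.45 in host medulla, 8.43 ± 0.97 in homeostatic BALB/c medulla and 11.09 ± 0.21 in homeostatic C57BL/6 medulla (SD, n = 3, 3, 4 and 4). On the donor medulla arrays Itgax, a marker the cells were sorted on, thus lay below the median of all probesets of the same array (7.67 to 7.81). Ptprc (CD45) was lowest in host medulla, at 8.97 to 10.93, against 12.22 to 12.92 on the homeostatic arrays.

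Calls among the 10 genes ran one way: each was lower in graft cells than in healthy cells of the same strain and region. In donor cortex cells, set against homeostatic BALB/c cortex cells, 3 of the 10 fell (Fos, Fosb and Dusp1). In donor medulla cells none of the 10 was called against homeostatic BALB/c medulla. In host cortex cells 2 fell against homeostatic C57BL/6 cortex (Jun and Dusp1), and in host medulla cells 3 fell against homeostatic C57BL/6 medulla (Jun, Egr1 and Egr2). None was called higher in any of the 4 comparisons.

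**Figure D1:**
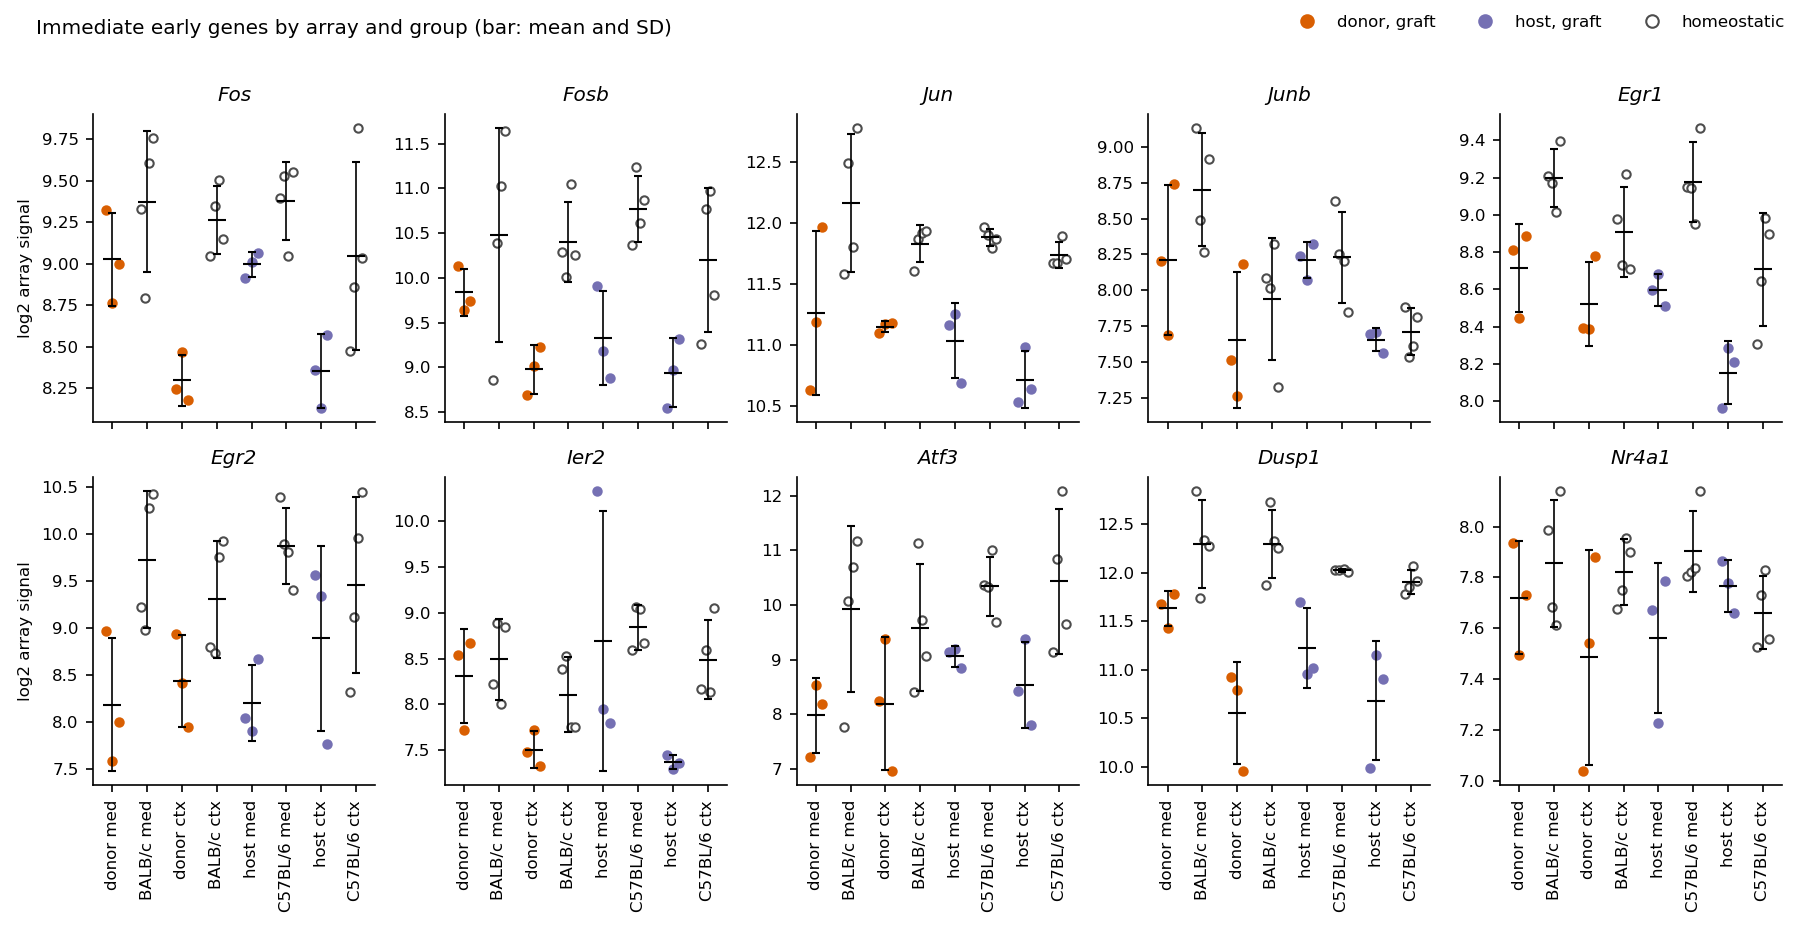
Log2 array signal (y axis, a separate scale for each gene) of the 10 immediate early genes in the 8 groups (x axis; med, medulla; ctx, cortex). Points are arrays, and bars give the mean and SD of 3 graft or 4 homeostatic arrays; for Dusp1 the graft arrays run from 9.96 to 11.78 and the homeostatic arrays from 11.74 to 12.84.

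Among all genes tested, limma called 16.0% lower in donor cortex, 1.45% lower in donor medulla, 2.15% lower in host cortex and 5.22% lower in host medulla, each against its healthy counterpart. It called 7.91%, 1.73%, 2.02% and 6.28% higher in the same 4 comparisons. The members' 3 calls in donor cortex stand against the highest of these backgrounds. The differences of the 10 members had a median of -0.77 in donor cortex, -0.57 in donor medulla, -0.86 in host cortex and -0.69 in host medulla, beside medians of -0.13, -0.11, -0.01 and 0.07 over all genes. A negative difference was seen in 10, 10, 9 and 10 of the 10 members, Nr4a1 in host cortex being the exception, beside 57.1%, 59.6%, 51.0% and 40.2% of all genes. These signs were the same after a second quantile normalisation of the arrays. The medians of the members were then -1.14 in donor cortex, -0.77 in donor medulla, -0.85 in host cortex and -0.73 in host medulla. The sizes against homeostatic BALB/c cells thus depended on the scaling of the arrays more than those against homeostatic C57BL/6 cells. The 4 comparisons share no array with each other, but donor and host cells came from the same mice. In material of this kind fewer cells with a transcript and less of it per cell cannot be told apart.

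Fos and Fosb encode the Fos side of AP-1. Fos lay at 8.24, 8.47 and 8.18 in donor cortex, against 9.05, 9.35, 9.51 and 9.15 in homeostatic BALB/c cortex. The groups did not overlap, and Fos fell by 0.97 ± 0.25 (SE), a 1.95-fold lower signal (limma adjusted p = 0.0084). In host cortex Fos lay at 8.36, 8.13 and 8.57, against 8.47, 8.86, 9.82 and 9.03 in homeostatic C57BL/6 cortex. These ranges overlapped at one end, and the difference of -0.69 ± 0.25 was not called (limma adjusted p = 0.135). In the medulla the Fos differences were smaller, at -0.35 ± 0.25 for donor over homeostatic BALB/c cells and -0.38 ± 0.25 for host over homeostatic C57BL/6 cells, and neither was called (limma adjusted p = 0.418 and 0.421).

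Fosb, the close relative of Fos, lay at 8.69, 9.02 and 9.23 in donor cortex, against 10.29, 10.01, 11.05 and 10.26 in homeostatic BALB/c cortex. All donor arrays were below all healthy ones, and Fosb fell by 1.42 ± 0.48, or 2.68-fold (limma adjusted p = 0.034). The call was lost in 4 of the 7 fits that left out 1 of these arrays: without donor cortex replicate 1 (limma adjusted p = 0.123) or 2 (0.0920), and without homeostatic BALB/c cortex replicate 3 (0.1015) or 4 (0.0564). In host medulla Fosb lay at 9.91, 9.18 and 8.89, against 10.37, 11.24, 10.62 and 10.87 in homeostatic C57BL/6 medulla. The groups did not overlap there either, and the difference of -1.45 ± 0.48 missed the threshold narrowly (limma adjusted p = 0.0503). The differences were -1.26 ± 0.48 in host cortex (limma adjusted p = 0.167) and -0.64 ± 0.48 in donor medulla (limma adjusted p = 0.436), with overlapping ranges. Homeostatic BALB/c medulla was the most uneven group for Fosb, its arrays running from 8.85 on replicate 1 to 11.65.

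Jun encodes the partner that Fos proteins need to bind DNA. In host cortex Jun lay at 10.53, 10.98 and 10.64, against 11.68, 11.67, 11.89 and 11.70 in homeostatic C57BL/6 cortex. The healthy arrays lay close together, the host arrays were all below them, and Jun fell by 1.02 ± 0.26, or 2.03-fold (limma adjusted p = 0.022). The call was lost without homeostatic C57BL/6 cortex replicate 3 (limma adjusted p = 0.0672) and without host cortex replicate 1 (0.0686) or 3 (0.0964). In host medulla Jun lay at 11.17, 11.26 and 10.69, against 11.96, 11.90, 11.80 and 11.87 in homeostatic C57BL/6 medulla. The groups were again apart, and Jun fell by 0.85 ± 0.26, or 1.80-fold (limma adjusted p = 0.032). That call was lost without any one of the 4 homeostatic C57BL/6 medulla replicates (limma adjusted p from 0.0523 to 0.0703) and without host medulla replicate 1 (0.0536) or 3 (0.1765).

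In donor cells Jun was not called. It lay at 11.10, 11.17 and 11.18 in donor cortex, against 11.60, 11.87, 11.92 and 11.93 in homeostatic BALB/c cortex, groups that did not overlap (-0.68 ± 0.26, limma adjusted p = 0.0571). In donor medulla it lay at 10.64, 11.19 and 11.97, against 11.58, 12.49, 11.80 and 12.78 in homeostatic BALB/c medulla. Here 1 donor array reached into the healthy range, and the difference was -0.90 ± 0.26 (limma adjusted p = 0.0561). Jun passed in donor medulla when homeostatic BALB/c medulla replicate 1, the array that stood apart, was left out, with a difference of -1.09 (limma adjusted p = 0.0381), and likewise without homeostatic BALB/c medulla replicate 3 (0.0276) or donor medulla replicate 3 (0.0077).

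Junb, a Jun relative that activates many AP-1 targets more weakly, was called in none of the 4 comparisons. Its differences were -0.28 ± 0.26 in donor cortex, -0.49 ± 0.26 in donor medulla, -0.06 ± 0.26 in host cortex and -0.02 ± 0.26 in host medulla, with overlapping ranges throughout (limma adjusted p from 0.281 to 0.985). The 95% intervals in the host comparisons were -0.61 to 0.49 in cortex and -0.57 to 0.53 in medulla. Junb was also the only member with just 2 graft groups among its 4 lowest group means.

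Egr1 and Egr2 encode zinc finger factors of the early growth response family. Egr1 lay at 8.60, 8.68 and 8.51 in host medulla, against 9.15, 9.15, 8.95 and 9.47 in homeostatic C57BL/6 medulla. The spread within both groups was small and they did not overlap, and Egr1 fell by 0.58 ± 0.18 (limma adjusted p = 0.032). It also lay wholly below the healthy arrays in host cortex, at 7.96, 8.28 and 8.21 against 8.31, 8.65, 8.98 and 8.90 in homeostatic C57BL/6 cortex, without being called (-0.56 ± 0.18, limma adjusted p = 0.0819). In donor medulla it lay at 8.81, 8.44 and 8.89, against 9.21, 9.17, 9.02 and 9.40 in homeostatic BALB/c medulla, again apart and not called (-0.48 ± 0.18, limma adjusted p = 0.121). The donor cortex difference was -0.39 ± 0.18, with overlapping ranges (limma adjusted p = 0.109). The call in host medulla was the least steady of all member calls: it was lost in 9 of 15 alternatives, among them each fit without a host medulla replicate (limma adjusted p of 0.0781, 0.0609 and 0.1081 without replicates 1, 2 and 3) and those without homeostatic C57BL/6 medulla replicate 1 (0.0545), 2 (0.0545) or 4 (0.1159).

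Egr2 had larger differences and a wider spread. In host medulla it lay at 8.04, 7.90 and 8.66, against 10.39, 9.89, 9.80 and 9.40 in homeostatic C57BL/6 medulla, so that the groups did not overlap. Egr2 fell by 1.67 ± 0.51, or 3.17-fold (limma adjusted p = 0.033). The call was lost without host medulla replicate 1 (limma adjusted p = 0.0978) or 2 (0.1285) and without homeostatic C57BL/6 medulla replicate 1 (0.0937), 2 (0.0627) or 3 (0.0592). In donor medulla it lay at 8.96, 7.58 and 8.00, against 9.22, 8.98, 10.27 and 10.43 in homeostatic BALB/c medulla. The ranges only just parted, and the difference of -1.54 ± 0.51 was not called (limma adjusted p = 0.0904). In cortex the ranges overlapped, with differences of -0.87 ± 0.51 for donor over homeostatic BALB/c cells and -0.57 ± 0.51 for host over homeostatic C57BL/6 cells (limma adjusted p = 0.212 and 0.778).

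Dusp1, which encodes the phosphatase that shuts off p38 and JNK, had the clearest separation. It lay at 10.93, 10.79 and 9.96 in donor cortex, against 11.88, 12.73, 12.33 and 12.26 in homeostatic BALB/c cortex. Every donor array was far below every healthy one, and Dusp1 fell by 1.74 ± 0.28, or 3.34-fold (limma adjusted p = 3.3e-04). Of the 14325 genes, 0.8% had a smaller p in this comparison. In host cortex it lay at 9.99, 11.15 and 10.91, against 11.79, 11.85, 12.07 and 11.91 in homeostatic C57BL/6 cortex. It fell there by 1.22 ± 0.28, or 2.33-fold (limma adjusted p = 0.011). Without host cortex replicate 1, the array with the lowest value, the difference was -0.88 and not called (limma adjusted p = 0.0724), and the call was also lost when the 2 groups were fitted alone (0.0887).

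In the medulla Dusp1 was lower by a smaller margin. It lay at 11.70, 10.96 and 11.02 in host medulla, against 12.02, 12.03, 12.04 and 12.01 in homeostatic C57BL/6 medulla, where the 4 healthy arrays were almost identical. The groups were apart, and the difference was -0.80 ± 0.28 (limma adjusted p = 0.0687). In donor medulla it lay at 11.68, 11.43 and 11.78, against 12.84, 11.74, 12.34 and 12.28 in homeostatic BALB/c medulla, so that only the top donor array passed the lowest healthy one (-0.67 ± 0.28, limma adjusted p = 0.169). Over all groups, 11.78 in donor medulla replicate 3 was the one graft value of Dusp1 that passed a homeostatic value, the 11.74 of homeostatic BALB/c medulla replicate 2. Fos and Dusp1 in donor cortex were the only member calls kept under all 15 alternatives run for them, with limma adjusted p from 0.0032 to 0.038 for Fos and from 1.2e-04 to 0.024 for Dusp1.

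Atf3 encodes a stress-induced factor that, in mouse macrophages, restrains inflammatory cytokine genes. It had the largest negative differences of the 10 in 2 of the 4 comparisons and no call in any. Its spread within groups was also the widest, with an SD of up to 1.51 (homeostatic BALB/c medulla). In donor medulla Atf3 lay at 7.22, 8.54 and 8.20, against 7.76, 10.07, 10.69 and 11.17 in homeostatic BALB/c medulla, a difference of -1.94 ± 0.77 (limma adjusted p = 0.147). The low healthy array is replicate 1, the one that stood apart. In host cortex it lay at 8.42, 9.38 and 7.81, against 9.14, 10.85, 12.09 and 9.64 in homeostatic C57BL/6 cortex (-1.89 ± 0.77, limma adjusted p = 0.217). The healthy C57BL/6 cortex arrays alone covered nearly 3 log2 units. In host medulla the groups did not overlap, with 9.13, 9.20 and 8.85 in host cells, against 10.36, 10.32, 11.00 and 9.68 in homeostatic C57BL/6 cells (-1.28 ± 0.77, limma adjusted p = 0.370). The donor cortex difference was -1.39 ± 0.77 (limma adjusted p = 0.184).

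Ier2 encodes a nuclear protein of the early response. It lay at 7.44, 7.30 and 7.36 in host cortex, against 8.17, 8.60, 8.13 and 9.05 in homeostatic C57BL/6 cortex. The host arrays were tightly grouped and wholly below the healthy ones, but the difference of -1.12 ± 0.42 was not called (limma adjusted p = 0.165). On each host cortex array Ier2 lay below the median of all probesets of the same array (7.622, 7.649 and 7.705). Ier2 was thus dim there, and its tight grouping does not show a steady level. In donor cortex it lay at 7.47, 7.72 and 7.32, against 8.38, 8.53, 7.76 and 7.76 in homeostatic BALB/c cortex, also apart and not called (-0.60 ± 0.42, limma adjusted p = 0.298). In the medulla the differences were -0.18 ± 0.42 for donor cells and -0.15 ± 0.42 for host cells (limma adjusted p = 0.826 and 0.915). Nr4a1, which encodes an orphan nuclear receptor, moved least: its group means spanned 0.42 log2 units in all, and its 4 differences ran from -0.34 ± 0.18 in host medulla and in donor cortex to 0.11 ± 0.18 in host cortex, with no call (limma adjusted p from 0.177 to 0.942). Its signal was dim, with a mean of 7.73 over the 28 arrays, at percentile 47.7 of the probesets. The small differences of Nr4a1 therefore do not show a steady gene. In host medulla its 7.67, 7.23 and 7.79 stood below the 7.81, 7.82, 7.84 and 8.14 of homeostatic C57BL/6 medulla.

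**Figure D2:**
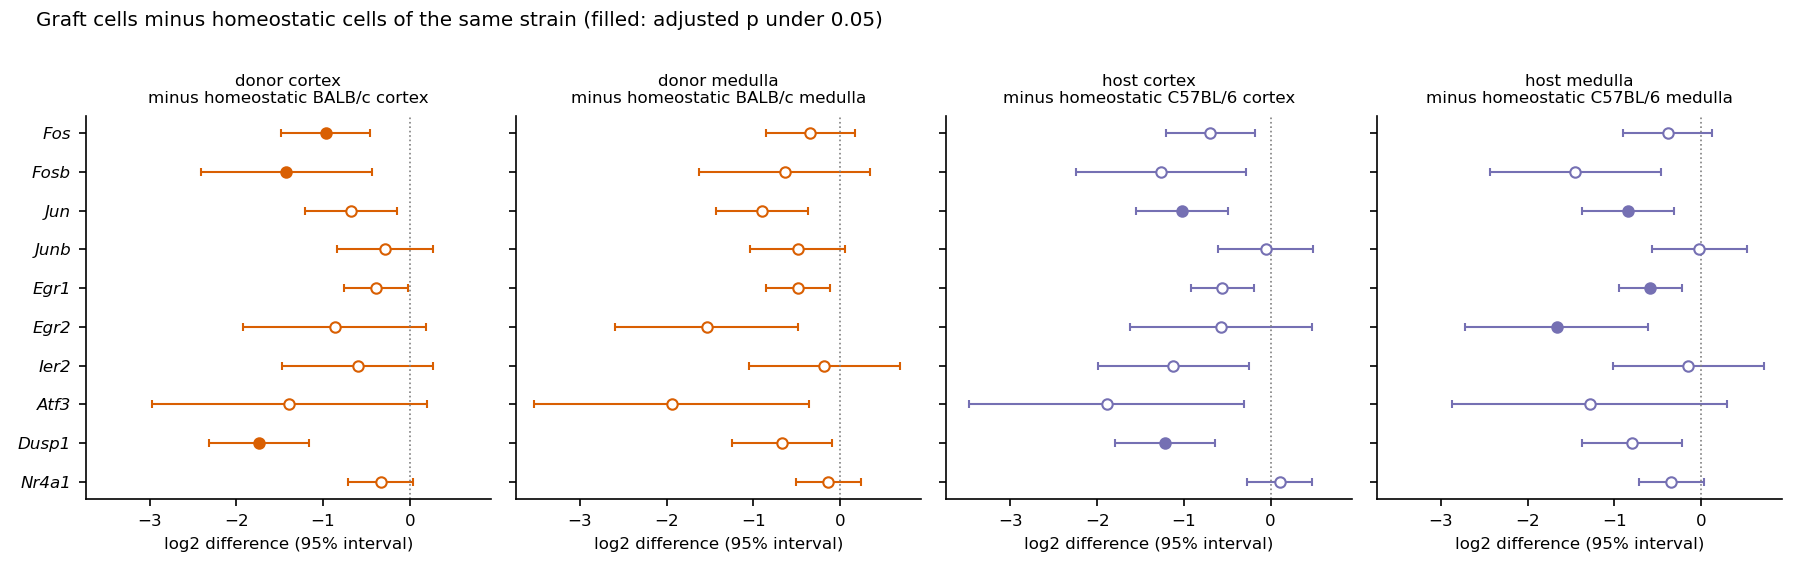
Log2 difference (x axis) of each of the 10 genes between graft cells and homeostatic cells of the same strain and region, with its 95% interval from limma; filled points passed an adjusted p of 0.05. The 8 filled points are 3 in donor cortex, 2 in host cortex and 3 in host medulla, and Nr4a1 in host cortex is the one difference above 0.

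Counted by overlap alone, the graft arrays lay wholly below the healthy arrays for 5 of the 10 members in donor cortex (Fos, Fosb, Jun, Ier2 and Dusp1), beside 18.5% of all genes. They did so for 2 in donor medulla (Egr1 and Egr2), beside 10.4%, for 4 in host cortex (Jun, Egr1, Ier2 and Dusp1), beside 7.90%, and for 7 in host medulla (Fosb, Jun, Egr1, Egr2, Atf3, Dusp1 and Nr4a1), beside 9.98%. No member lay wholly above in any of these comparisons. In donor medulla, where limma called none, 5 members had an unadjusted p under 0.05 (Jun, Egr1, Egr2, Atf3 and Dusp1), beside 21.9% of all genes in either direction. A second quantile normalisation called Jun, Egr1 and Egr2 there, and weighting the arrays by quality called Jun.

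By the order of the 8 group means, for Fos, Fosb, Jun, Egr2, Atf3 and Dusp1 the 4 graft groups held the 4 lowest means. For 8 members the lowest mean was in a graft cortex group, and for Egr2 and Atf3 it was in donor medulla. The highest mean was in a homeostatic medulla group for 9 members and in homeostatic C57BL/6 cortex for Atf3. Neighbouring groups in these orders were mostly not separable: of 70 neighbouring pairs, 4 had ranges that did not overlap. Fos was higher in host medulla (8.92 to 9.06) than in host cortex (8.13 to 8.57), and Egr1 was higher in donor cortex (8.39 to 8.78) than in host cortex (7.96 to 8.28). Ier2 was lower in donor cortex (7.32 to 7.72) than in homeostatic BALB/c cortex (7.76 to 8.53), and Dusp1 was lower in donor medulla (11.43 to 11.78) than in homeostatic C57BL/6 cortex (11.79 to 12.07). None of these differences was called for Fos, Egr1 or Ier2 (limma adjusted p = 0.237, 0.969 and 0.298), and the Dusp1 pair was not compared by limma. The orders and overlaps in this paragraph were not counted over all genes, so they are descriptions only.

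Whether donor and host cells of the same graft differed was tested directly. No member was called between donor and host cells in cortex, where limma called 0.496% of all genes in either direction, or in medulla, where it called 0.593%, and 0 members had an unadjusted p under 0.05 in either. The differences of Dusp1 were -0.13 ± 0.30 in cortex and 0.41 ± 0.30 in medulla, and those of Fos were -0.06 ± 0.26 and 0.03 ± 0.26. The interval of Atf3 in medulla ran from -2.77 to 0.62, and those of Dusp1 from -0.74 to 0.49 in cortex and from -0.21 to 1.02 in medulla. Setting the donor minus host difference against the BALB/c minus C57BL/6 difference of healthy cells called no member either, in cortex (0.775% of genes called) or in medulla (1.14%), with 0 members at an unadjusted p under 0.05 in both. The calls in donor cortex and in host cells are therefore not shown to differ from each other.

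The second axis of the study is the region. No member was called between medulla and cortex by limma in donor cells (2.55% of genes called in either direction), host cells (4.29%), homeostatic BALB/c cells (0.0698%) or homeostatic C57BL/6 cells (0.154%). At an unadjusted p under 0.05 there were 2 members in donor cells (Fos and Dusp1), 3 in host cells (Fos, Egr1 and Ier2), 1 in homeostatic BALB/c cells (Junb) and 2 in homeostatic C57BL/6 cells (Junb and Egr1), all higher in medulla. Of all genes, 13.8% passed that threshold in donor cells, 13.8% in host cells, 7.0% in homeostatic BALB/c cells and 3.7% in homeostatic C57BL/6 cells, in either direction. The median difference of the 10 members was 0.40, 0.48, 0.31 and 0.34 in the same order, beside 0.11, 0.10, 0.03 and 0.02 over all genes. Medulla was the higher region for 8, 8, 10 and 9 of the 10. Of all genes, 39.9%, 37.8%, 45.2% and 44.3% were lower in medulla, so most genes were higher there too. After the second quantile normalisation the homeostatic BALB/c difference of Dusp1, 0.00 before, turned negative, and no other of these signs turned. The homeostatic BALB/c median of the members was then 0.23.

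Dusp1 came nearest to a regional call. In donor cells it lay at 11.68, 11.43 and 11.78 in medulla, against 10.93, 10.79 and 9.96 in cortex, a difference of 1.07 ± 0.30 with no overlap (limma adjusted p = 0.0576). With mouse as a random block it was called (limma adjusted p = 0.0436), and with mouse as a fixed block it was not (0.350). Ier2 in host cells had the widest regional difference, with 10.34, 7.95 and 7.79 in medulla, against 7.44, 7.30 and 7.36 in cortex. Its 1.33 ± 0.45 was not called (limma adjusted p = 0.119), and it rests on host medulla replicate 1: without that array the difference was 0.50 (limma adjusted p = 0.563), and without host medulla replicate 3 it was 1.78 and called (0.0333). Medulla arrays lay wholly above cortex arrays for 3 members in donor cells (Fos, Fosb and Dusp1), beside 7.76% of all genes, and for 4 in host cells (Fos, Junb, Egr1 and Ier2), beside 11.0%.

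Each graft mouse gave medulla and cortex from both donor and host cells, so the region can be read within 6 pairs of arrays from 3 mice. Fos was higher in medulla in 6 of 6 pairs, by 1.08, 0.29 and 0.82 in donor cells and by 0.56, 0.88 and 0.49 in host cells. Junb was higher in 6 of 6, by 0.69, 0.42 and 0.55 in donor cells and 0.54, 0.37 and 0.76 in host cells. Egr1 was higher in 6 of 6, by 0.42, 0.06 and 0.10 in donor cells and 0.64, 0.40 and 0.30 in host cells. The Egr1 differences in donor cells were thus small in 2 of the 3 mice, whereas those of Junb were at least 0.37 in every pair and those of Fos at least 0.29. Among all genes 13.9% were higher in medulla in all 6 pairs. Fosb, Jun, Ier2 and Dusp1 were higher in 5 of 6 pairs, Egr2 and Atf3 in 3, and Nr4a1 in 2. In healthy kidneys no member was higher in medulla in all 8 pairs, Junb came to 7, and Fos, Egr1, Egr2, Ier2, Dusp1 and Nr4a1 came to 6. All 8 pairs is a stricter bar than all 6, and the share of all genes that met it is not given here. The healthy and graft counts are therefore not set against each other.

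**Figure D3:**
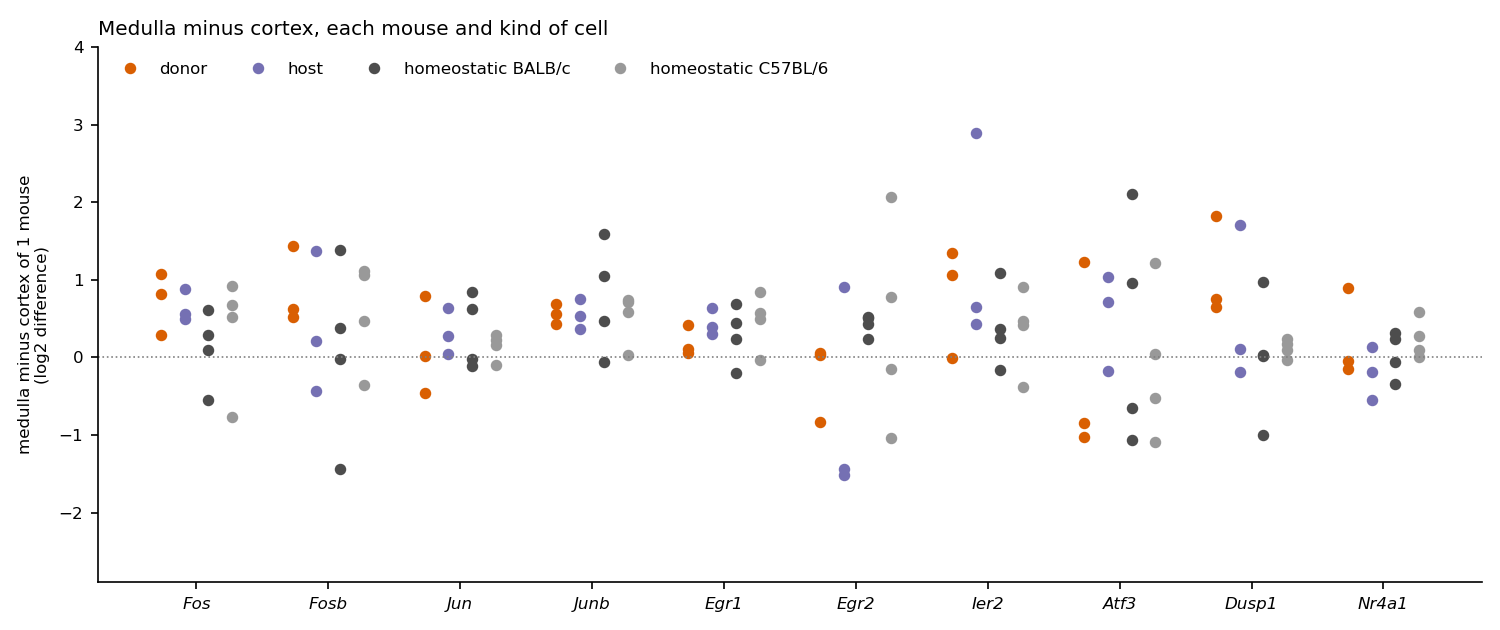
Medulla minus cortex log2 difference (y axis) for each mouse and kind of cell: 3 donor pairs, 3 host pairs, 4 homeostatic BALB/c pairs and 4 homeostatic C57BL/6 pairs per gene. Points for Fos, Junb and Egr1 in graft cells all lie above 0, and the host point of Ier2 at 2.89 is the highest of all pairs.

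Whether the regional difference itself changed was tested as an interaction. No member was called for donor over homeostatic BALB/c cells (0.454% of genes called), for host over homeostatic C57BL/6 cells (0.901%) or between the healthy strains (0.0419%). Dusp1 had an unadjusted p of 0.0124 in donor over homeostatic BALB/c cells, with a regional difference larger by 1.07 ± 0.39 in the graft (limma adjusted p = 0.389), and 0 members passed an unadjusted p of 0.05 in the other 2. Markers differed between the regions too. Of all genes, 2.55% were called between the regions in donor cells and 4.29% in host cells, in either direction. Proximal tubule markers were negative for 9 of 9 genes in donor cells (median -4.82) and for 9 of 9 in host cells (-4.29), with 8 called lower in medulla in each. Leukocyte-wide markers were negative for 13 of 16 in donor cells (-0.51), with 0 called, and for 14 of 16 in host cells (-1.43), with 7 called lower. Epithelium-wide markers had the sign of the members, positive for 10 of 10 in donor cells (0.68), with 1 called higher, and for 9 of 10 in host cells (1.23), with 3 called higher. Natural killer cell markers had 2 of 4 called lower in host medulla and 0 of 4 called in donor medulla. The part of these markers in the regional differences of the members was not tested.

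Strain made no called difference in healthy cells. Between homeostatic BALB/c and homeostatic C57BL/6 cells limma called 0 of 10 members in cortex, where it called 9.80% of all genes, and 0 of 10 in medulla, where it called 9.10%, and 0 members had an unadjusted p under 0.05 in either. Fos in medulla averaged 9.37 ± 0.42 in homeostatic BALB/c cells and 9.38 ± 0.23 in homeostatic C57BL/6 cells (SD, n = 4 each). Member differences ran from -0.84 ± 0.71 (Atf3) to 0.39 ± 0.26 (Dusp1) in cortex and from -0.42 ± 0.71 (Atf3) to 0.47 ± 0.25 (Junb) in medulla. Under the second quantile normalisation the sign of Egr2 turned in both regions and that of Fos in medulla. The median of the members moved from 0.18 to 0.22 in cortex and from -0.03 to 0.29 in medulla.

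The members followed each other over the arrays to different degrees. Of the 45 pairs of members, 44 had a positive Pearson correlation over the 28 arrays, with a median of 0.492, and 32 were positive once each group's mean was taken out, with a median of 0.181. These values describe 28 arrays that share groups and mice, and carry no test. Fos and Egr1 had the highest correlation over all arrays, 0.779, while Fosb and Atf3 had the highest within groups, 0.527. Junb followed the other 9 members least, with 0.358 over all arrays and -0.05 within groups. Outside the list, the 5 genes whose signal correlated most with the mean of the 10 members over the 28 arrays were Zfp36 (0.863), Tnfaip8l2 (0.841), Nfkbiz (0.839), Btg2 (0.825) and Klf2 (0.820). Within groups the correlations of these 5 were lower, between 0.395 for Tnfaip8l2 and 0.719 for Btg2.

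Related early genes were read as lists. The mRNA decay and growth arrest list, which holds the transcript-destabilising protein Zfp36 and the antiproliferative Btg2, had 4 of 15 genes lower in donor cortex, 0 in donor medulla, 1 in host cortex and 3 in host medulla, each against its healthy counterpart, and none higher. The shares of all genes called lower in these comparisons were 16.0%, 1.45%, 2.15% and 5.22%. In donor cortex Ier5 fell by 1.08 ± 0.27 (limma adjusted p = 0.0073), Zfp36 by 0.72 ± 0.19 (0.012) and Klf2 by 0.59 ± 0.19 (0.028). In host medulla Zfp36 fell by 0.98 ± 0.19 (limma adjusted p = 0.0013), Ier5 by 1.21 ± 0.27 (0.0036) and Klf6 by 0.67 ± 0.20 (0.033). Klf6, a Kruppel-like factor, was the 1 called gene in host cortex (-0.88 ± 0.20, limma adjusted p = 0.013). The medians of this list were -0.39, -0.36, -0.37 and -0.24 in donor cortex, donor medulla, host cortex and host medulla.

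The list of early NF-kappaB inhibitors, genes that NF-kappaB itself induces and that restrain it, had 2 of 7 lower in donor cortex, 0 in donor medulla, 1 in host cortex and 3 in host medulla, beside the same shares of all genes. Nfkbiz, an atypical inhibitor that works in the nucleus, fell by 1.04 ± 0.35 in donor cortex (limma adjusted p = 0.032), by 1.58 ± 0.35 in host cortex (0.0077) and by 1.53 ± 0.35 in host medulla (0.0038). Tnfaip3, which encodes the deubiquitinating enzyme A20, fell by 1.28 ± 0.26 in host medulla (limma adjusted p = 0.0015). The medians were -0.12, -0.29, 0.14 and -0.76 in the same order of groups, so in host cortex the list as a whole did not follow Nfkbiz.

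Few of the nearest relatives of the members were called. Of all genes, 16.0% were called lower in donor cortex, 1.45% in donor medulla, 2.15% in host cortex and 5.22% in host medulla. The single calls per list in donor cortex do not exceed that share. Of 11 other AP-1 family genes, Fosl1 alone was called, lower in donor cortex (-0.55 ± 0.18, limma adjusted p = 0.032). Of 5 EGR and NR4A relatives and NAB cofactors none was called in the 4 comparisons, with 2, 1, 0 and 0 at an unadjusted limma p under 0.05 in donor cortex, donor medulla, host cortex and host medulla. In the same order, 38.4%, 21.9%, 14.1% and 22.1% of all genes passed that threshold, in either direction. Of 8 other MAP kinase phosphatases, Dusp8 fell in donor cortex (-0.53 ± 0.15, limma adjusted p = 0.014) and Dusp6, which acts on ERK, in host medulla (-1.16 ± 0.29, 0.0083). Of 13 kinases and transcription factors upstream of the members, Mapk14, which encodes p38 alpha, fell in donor cortex (-1.29 ± 0.41, limma adjusted p = 0.026) and in host medulla (-1.82 ± 0.41, 0.0037).

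Heat shock genes belong to another stress programme. Of 9 tested, 4 rose in donor cortex, beside 7.91% of all genes called higher, and 2 rose in host medulla, beside 6.28%. None was called in donor medulla or in host cortex, and none was called lower in any of the 4 comparisons. Hsph1, a chaperone of the Hsp110 family, rose by 1.18 ± 0.37 in donor cortex (limma adjusted p = 0.025) and by 1.60 ± 0.37 in host medulla (0.0047). Hspb1, a small heat shock protein gene, rose by 1.20 ± 0.33 in host medulla (limma adjusted p = 0.015), and Hspd1, a mitochondrial chaperonin gene, by 0.66 ± 0.17 in donor cortex (0.0088). The list medians were 0.25, 0.43, 0.20 and 0.27 in donor cortex, donor medulla, host cortex and host medulla. In the uncalled comparisons 3 heat shock genes in donor medulla and 0 in host cortex had an unadjusted limma p under 0.05. Of all genes, 21.9% and 14.1% did so, in either direction. Between the regions, 0 of the 9 heat shock genes were called in donor cells. The mRNA decay and growth arrest list had 1 of 15 called higher there, beside 2.55% of all genes called in either direction. That gene was Ppp1r15a, which encodes the stress-induced eIF2 alpha phosphatase subunit GADD34. It was higher in donor medulla than in donor cortex by 1.75 ± 0.37 (limma adjusted p = 0.0080).

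**Figure D4:**
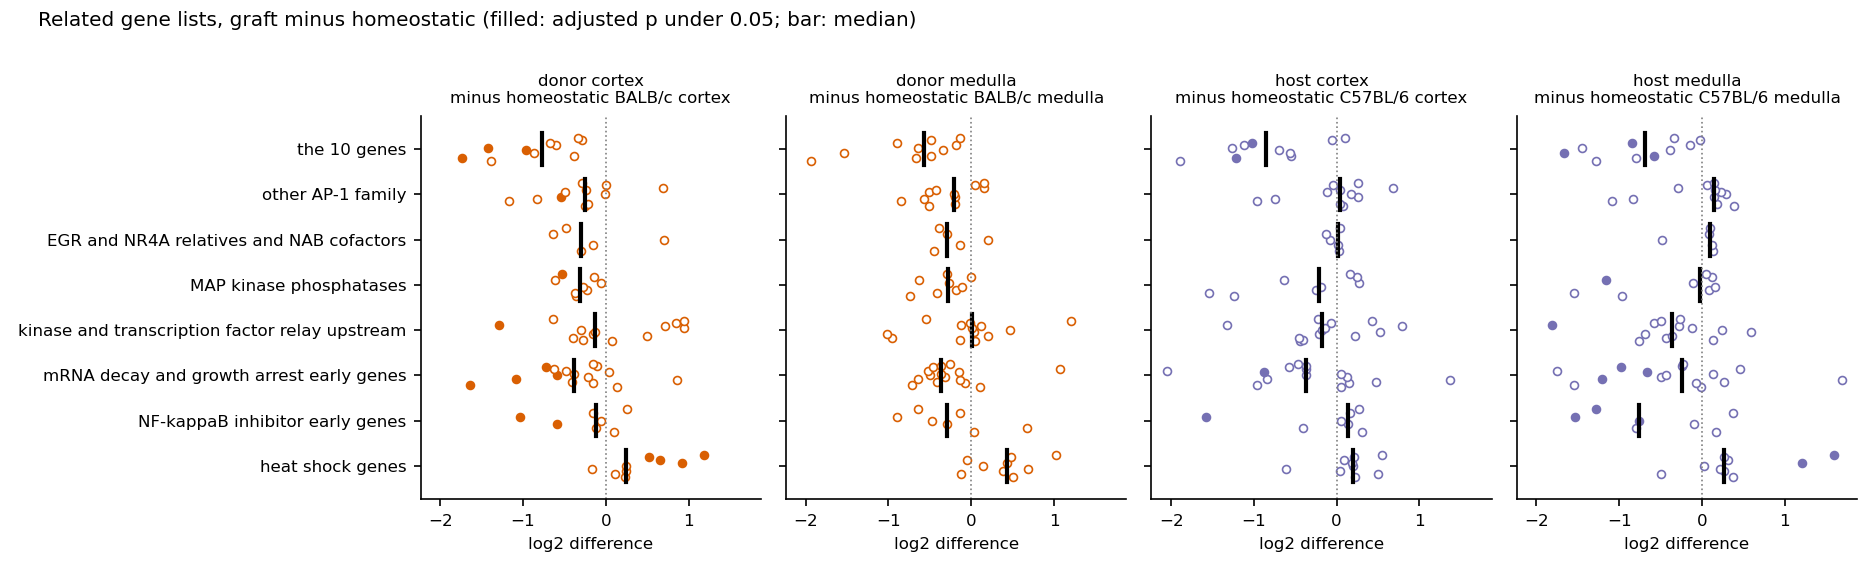
Log2 difference (x axis) of each gene of the 10 members and of 7 related lists (rows) in the 4 comparisons of graft with homeostatic cells; each point is 1 gene, filled where the limma adjusted p was under 0.05, and black bars are list medians. The medians of the 10 members lie between -0.86 and -0.57, and those of the heat shock genes between 0.20 and 0.43.

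Markers of the cells in each sort moved with the same comparisons. Against healthy cells, the leukocyte-wide markers had 14 of 16 genes called lower in host medulla (median -3.12), 1 of 16 in host cortex (-1.03), and 0 of 16 called in donor cortex (-0.67) and in donor medulla (-0.92). In donor cortex and donor medulla, 3 and 8 of the 16 had an unadjusted limma p under 0.05. Of all genes, 38.4% and 21.9% did so, in either direction. Epithelium-wide markers had 9 of 10 called higher in host medulla (2.48), 3 in host cortex (0.92), 4 in donor cortex (0.94) and 4 in donor medulla (1.46). Of all genes, 6.28%, 2.02%, 7.91% and 1.73% were called higher in this order of groups, and 5.22%, 2.15%, 16.0% and 1.45% lower. Proximal tubule markers had 5 of 9 called higher in donor cortex, 1 in host cortex and 0 in either medulla group, with 1 called lower in host medulla. Resident macrophage markers had 6 of 8 called lower in host cortex, 6 in host medulla, 2 in donor cortex and 1 in donor medulla. Natural killer cell markers had 3 of 4 called higher in host cortex, 1 called lower in donor cortex and 0 called in either medulla group. Dendritic cell markers had 2, 1, 4 and 5 of 6 called lower in donor cortex, donor medulla, host cortex and host medulla.

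As the mean log2 signal of the list, leukocyte-wide markers lay at 10.54 to 11.38 in donor cortex, 9.61 to 11.17 in donor medulla, 9.48 to 11.54 in host cortex and 8.32 to 9.63 in host medulla, against 11.32 to 11.87 on the 16 homeostatic arrays. Epithelium-wide markers lay at 8.91 to 9.50 in donor cortex, 9.59 to 10.22 in donor medulla, 8.84 to 9.52 in host cortex and 9.98 to 10.59 in host medulla, against 7.84 to 9.19 on the homeostatic arrays. The mean of the 10 members, each centred on its own mean over the 28 arrays, lay at -0.78 to -0.53 in donor cortex, -0.50 to -0.07 in donor medulla, -0.76 to -0.44 in host cortex and -0.40 to 0.03 in host medulla, against -0.29 to 0.99 on the homeostatic arrays. The 0.03 belongs to host medulla replicate 1, the array with Ier2 at 10.34. Resident macrophage markers averaged 7.36 to 7.96 in host cortex and 7.67 to 7.96 in host medulla, against 10.85 to 10.94 in homeostatic C57BL/6 cortex and 10.96 to 11.11 in homeostatic C57BL/6 medulla. Natural killer cell markers averaged 8.69 to 9.34 in host cortex, against 6.92 to 7.31 in homeostatic C57BL/6 cortex. Arrays have no true 0 for a marker, so an absent cell type cannot be read from them, and the part of these markers in the members' differences was not tested.

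**Figure D5:**
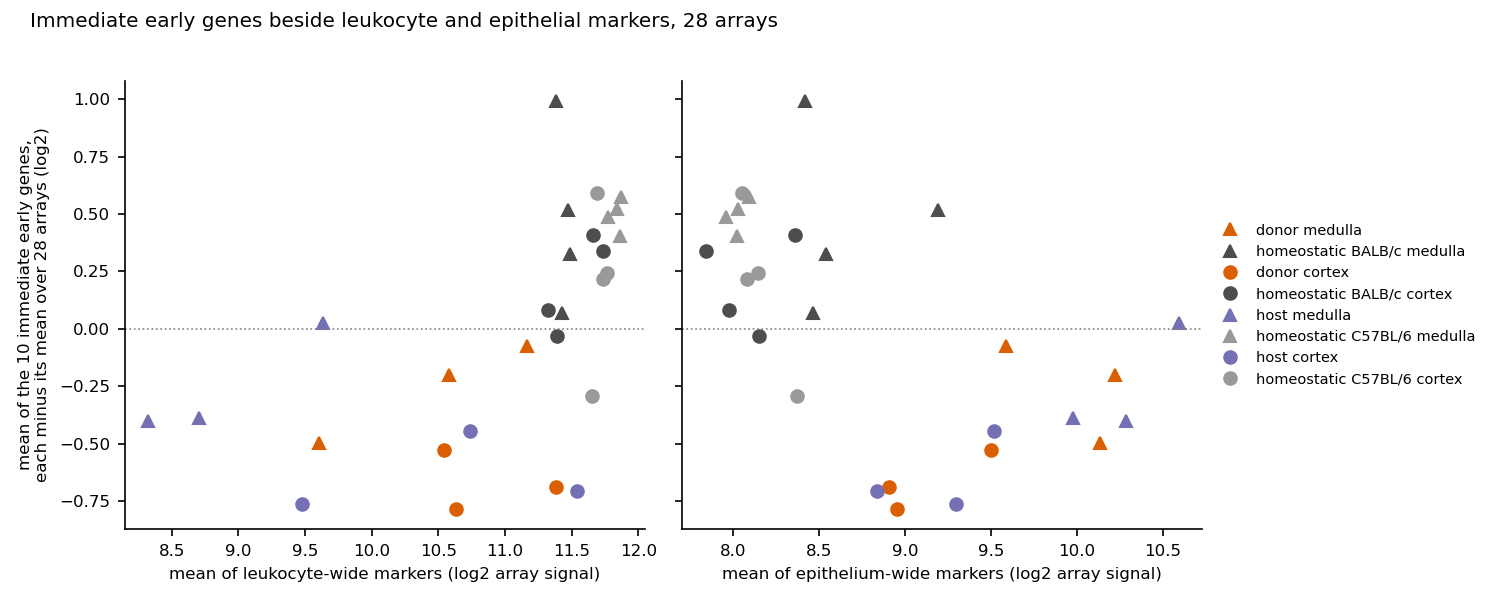
Mean of the 10 immediate early genes, each centred on its own mean over the 28 arrays (y axis, log2), against the mean log2 signal of 16 leukocyte-wide (left) and 10 epithelium-wide (right) markers (x axes); each point is an array. Graft cortex arrays lie at -0.78 to -0.44 on the y axis, and host medulla arrays at 8.32 to 9.63 on the left x axis.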

How the data were processed

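RNA of sorted kidney dendritic cells was measured on 28 arrays with 22549 probesets each. The deposited values are log2 signals that the authors made by RMA and oligo, as the submitters' processing notes list them, with versions not given in the sources used here. RMA is meant to equalise the distributions of the arrays, which can hide a shift shared by most genes. The deposited arrays were still not alike, with medians over all probesets from 7.60 to 7.88. Their SD over all probesets was 1.46 to 1.67 on homeostatic BALB/c arrays, 1.71 to 1.78 on homeostatic C57BL/6 arrays and 1.66 to 1.84 on donor arrays. Differences against homeostatic BALB/c cells thus compare arrays of unlike spread. Of the probesets, 20646 had 1 gene symbol in the platform annotation, 551 had several and 1352 had none listed. The brightest probeset stood for a gene, and 14325 genes above the 40th percentile of their array on at least 3 arrays were tested. limma 3.58.1 in R 4.3.3 gave each of the 8 groups its own mean (28 arrays, 20 residual degrees of freedom), with Benjamini-Hochberg adjustment over all genes within each of 12 group comparisons and 5 interaction contrasts. The fit was tested on simulated arrays. Precision is limited by 3 or 4 arrays per group.

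The 10 members and the related and marker lists were chosen with earlier results of these data known, so no list was tested as a set. The members were named in every comparison, and of the related lists at most 3 called genes per list and comparison, by smallest adjusted p. Alternatives were a block for mouse (random, or fixed), no filter, a stricter filter, a second quantile normalisation, a trended robust prior, the compared groups alone, array weights, the mean over probesets and leaving out each array. The labels give a mouse number, so arrays of 1 mouse are paired. Their deviations from the group means correlated at 0.155 in donor cells and 0.106 in host cells, and at -0.003 and -0.006 in homeostatic C57BL/6 and BALB/c cells. The consensus correlation within mice was 0.134.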

Additional observations from a re-analysis of the deposited data

Results flagged for a closer look

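Among 112 sets of 4 homeostatic arrays (40 of them single members), 5 had an array set off from the other 3 by Dixon's criterion, where chance alone gives about 1 in 20. Of the members, Jun in homeostatic C57BL/6 cortex had replicate 3 at 11.89, with the other 3 from 11.67, and leaving it out ended the call of Jun in host cortex. Nr4a1 in homeostatic C57BL/6 medulla had replicate 4 at 8.14, with the others from 7.81. Among the sort markers, Itgax in homeostatic BALB/c cortex had replicate 2 at 11.85, with the lowest of the others at 9.90, and H2-Ab1 in homeostatic C57BL/6 medulla had replicate 2 at 13.14, below the others. The mean of the epithelium-wide markers in homeostatic BALB/c medulla had replicate 3 at 9.19, with the others from 8.42. Graft groups hold 3 arrays and were not screened in this way.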

How the results depend on the processing

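The counts of members called kept within 1.5 times of the reported ones in the comparisons between strains, between donor and host cells and in the 5 interaction contrasts under all alternatives run, and in the healthy regional comparisons, where all gave 0. In donor medulla over donor cortex the count of 0 became 1 with mouse as a random replicate block, 1 after a second quantile normalisation and 2 with array weights. In host medulla over host cortex it became 1 with array weights, and 0 to 1 when single arrays were left out. In donor cortex over homeostatic BALB/c cortex the count of 3 became 5 after the second normalisation and 6 with array weights, and 2 to 5 when single arrays were left out, the 5 without donor cortex replicate 3. In donor medulla over homeostatic BALB/c medulla the 0 became 1 with no filter, 3 after the second normalisation and 1 with array weights, and 0 to 1 when single arrays were left out. In host cortex over homeostatic C57BL/6 cortex the 2 became 1 with the groups alone, where Dusp1 was lost, and 5 with array weights, and 0 to 4 when single arrays were left out, 0 without host cortex replicate 1 and 4 without homeostatic C57BL/6 cortex replicate 1. In host medulla over homeostatic C57BL/6 medulla the 3 became 5 with the groups alone, and 0 to 3 when single arrays were left out, 0 without homeostatic C57BL/6 medulla replicate 1 or 2. The cause of these shifts was not tested. Apart from Dusp1 in donor medulla over donor cortex, neither replicate block changed a member's call, the fixed one being run where groups share mice. None of the 8 member calls changed sign under any of its 15 alternatives. Averaging probesets left the members' values as they were, since each has 1 probeset. Over all genes, leaving out single arrays moved the calls in donor cortex over homeostatic BALB/c cortex, 3429 with all arrays, between 1496 and 4340, and in donor medulla over homeostatic BALB/c medulla, 456 with all arrays, between 60 and 1085. Between homeostatic BALB/c and homeostatic C57BL/6 cells they moved between 498 and 1709 in cortex (1404 with all arrays) and between 230 and 2343 in medulla (1304). Other ranges past 1.5 times of the count with all arrays were 345 to 872 in host cortex over homeostatic C57BL/6 cortex (597) and 50 to 134 between donor and host cells in medulla (85). In the regional comparisons of healthy cells they were 6 to 55 in C57BL/6 (22) and 8 to 29 in BALB/c (10), and in the interaction contrasts 0 to 11 between the strains (6), 46 to 108 for donor over homeostatic BALB/c cells (65), 85 to 187 for host over homeostatic C57BL/6 cells (129), and 39 to 536 and 90 to 201 for donor and host against the strains in cortex (111) and medulla (163).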
